A study of Homo sapiens with 6 samples.

Results

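RNA levels of cell cycle and DNA replication genes were compared between EndoC-βH1 cells (EndoCBH1 in the labels) treated with siRNA against the homeobox transcription factor MNX1 and the same line treated with a non-targeting control siRNA. The genes were a named set of 48 cell cycle genes, of which 46 were matched by symbol among the 16792 genes of the authors' table, and CCND1 and CCND2 were not analysed here. They comprised 17 genes of DNA replication, 17 genes of mitosis, 8 cyclins, kinases and regulators of the G1 phase and 4 inhibitors of cyclin-dependent kinases. EndoC-βH1 is a human beta cell line made from fetal pancreas, labelled as wild type in the control libraries and as MNX1 knock down in the others. The study asked whether MNX1 keeps somatostatin silent in beta cells by repressing PERCC1. There were 3 libraries with non-targeting siRNA (siNT) and 3 with MNX1 siRNA (siMNX1), all of 1 line. The labels give neither the time after transfection nor whether replicates were separate cultures. The p-values therefore rest on the spread among these libraries, and that spread may be technical.

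A cell copies its DNA in S phase and divides in mitosis, and a different set of genes is transcribed for each. E2F factors, held back by the RB protein until cyclins and their kinases phosphorylate it, drive the genes of replication, while the MuvB complex with MYBL2 and FOXM1 drives the later mitotic genes through a promoter element called the cell cycle homology region. Adult human beta cells divide rarely. EndoC-βH1 cells divide in culture because they carry SV40 large T antigen under an insulin promoter, together with telomerase, and large T binds both RB and p53. Both groups of libraries carry these changes, so the data describe the cell cycle of an immortalized line.

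The promoters of the replication and mitosis genes held different shares of known cell cycle elements, and 6 are shown here because they carry those elements or belong to replication genes that fell. Each is the stretch of 250 bases before the RefSeq start (GRCh38.p14), 5′ to 3′ in the gene's direction. Capitals mark matches, on either strand, to an E2F core (spelled TTGGCGC or TTCCCGC or TTCGCGC), to the cell cycle homology region (TTTGAA) or to the CCAAT box (CCAAT). PCNA (chr20:5126623-5126872, minus strand), CDT1 (chr16:88803539-88803788, plus strand), FEN1 (chr11:61792661-61792910, plus strand) and MCM6 (chr2:135876444-135876693, minus strand) are replication genes. TOP2A (chr17:40417897-40418146, minus strand) and CCNB2 (chr15:59104896-59105145, plus strand) are mitotic genes.
PCNA: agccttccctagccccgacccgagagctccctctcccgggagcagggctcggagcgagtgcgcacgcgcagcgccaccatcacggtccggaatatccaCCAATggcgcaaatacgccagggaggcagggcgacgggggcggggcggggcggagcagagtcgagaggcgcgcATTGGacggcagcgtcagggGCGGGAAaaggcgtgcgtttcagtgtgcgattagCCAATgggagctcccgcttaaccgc
CDT1: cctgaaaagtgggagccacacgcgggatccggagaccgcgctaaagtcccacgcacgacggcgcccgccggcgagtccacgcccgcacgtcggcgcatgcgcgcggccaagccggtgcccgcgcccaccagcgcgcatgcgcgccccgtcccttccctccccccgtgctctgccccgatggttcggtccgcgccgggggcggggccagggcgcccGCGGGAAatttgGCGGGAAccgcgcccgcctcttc
FEN1: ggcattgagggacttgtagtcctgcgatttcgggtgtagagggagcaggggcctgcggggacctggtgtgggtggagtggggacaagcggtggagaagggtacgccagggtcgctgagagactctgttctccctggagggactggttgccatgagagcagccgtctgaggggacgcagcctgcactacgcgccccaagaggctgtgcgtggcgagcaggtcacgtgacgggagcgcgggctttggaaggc
MCM6: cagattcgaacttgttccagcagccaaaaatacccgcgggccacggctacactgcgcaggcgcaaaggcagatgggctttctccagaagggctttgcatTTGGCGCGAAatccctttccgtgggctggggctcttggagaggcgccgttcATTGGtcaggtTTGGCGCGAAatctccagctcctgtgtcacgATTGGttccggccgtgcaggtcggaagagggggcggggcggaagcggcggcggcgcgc
TOP2A: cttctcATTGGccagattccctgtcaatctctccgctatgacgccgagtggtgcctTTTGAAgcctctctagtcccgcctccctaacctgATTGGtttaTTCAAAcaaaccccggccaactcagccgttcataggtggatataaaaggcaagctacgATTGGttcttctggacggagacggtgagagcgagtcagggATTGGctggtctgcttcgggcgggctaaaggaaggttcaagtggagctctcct
CCNB2: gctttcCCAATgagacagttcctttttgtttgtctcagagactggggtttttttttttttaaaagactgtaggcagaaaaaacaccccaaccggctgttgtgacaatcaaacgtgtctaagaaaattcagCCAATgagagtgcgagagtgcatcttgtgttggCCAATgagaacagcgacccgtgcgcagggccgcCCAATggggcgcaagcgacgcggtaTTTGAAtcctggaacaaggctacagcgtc

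The PCNA stretch came from 1 of its 2 RefSeq windows, picked because it has an E2F match, and held 1 E2F core and 3 CCAAT boxes. The other PCNA window held 0 E2F cores and 2 CCAAT boxes. The CDT1 stretch held 2 E2F cores, which begin 35 and 23 bases before the start, and the FEN1 stretch held none of the letters searched. In MCM6, 4 E2F matches lie as overlapping pairs on opposite strands, beside 2 CCAAT boxes. TOP2A held 2 cell cycle homology elements and 4 CCAAT boxes, and CCNB2 held 1 and 4, with no E2F core in either. Over the full windows of 300 bases, which reach 50 bases past the start, an E2F core stood in 15 of 24 windows of replication members (62.5%) and in 3 of 16 windows of mitosis members (18.8%). It stood in 16.0% of the 16388 windows of genes in the authors' table and in 11.0% of all 35116 RefSeq windows. The cell cycle homology region stood in 1 of the 24 replication windows (4.17%) and 9 of the 16 mitosis windows (56.2%), against 10.3% and 15.2% of those larger sets. A CCAAT box stood in 70.8% of the replication windows and 87.5% of the mitosis windows, against 34.8% and 34.6%. For the other replication and other mitosis genes described below, an E2F core stood in 52.5% of 61 and 30.2% of 63 windows. The cell cycle homology region stood in 6.56% and 57.1% of these, and a CCAAT box in 47.5% and 66.7%. Several genes have more than 1 window, and these motifs were chosen as textbook elements of such promoters. A match describes the letters and not the binding of a factor.

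MNX1 itself stood at 2039, 2033 and 1988 (normalized counts, siNT replicates 1, 2 and 3) and at 1885, 1708 and 1751 (siMNX1, likewise in order). All 3 siMNX1 libraries lay below the siNT libraries, with a mean difference of -11.8%, and limma did not call it (log2 fold change -0.18, adjusted p = 0.116). The libraries labelled as knock down thus differ from the controls by a small, uncalled amount in the targeted RNA. All 16 beta cell markers looked for had a row, among them INS, at between 107169 and 130171 normalized counts. Of those 16 markers RFX6, MAFA and PCSK1 were higher and G6PC2 lower by limma, PCSK1 being named after its values were seen. Among all genes 1.99% were called higher and 1.33% lower. Leaving out siNT replicate 2, siNT replicate 3 or siMNX1 replicate 1 ended the MAFA and PCSK1 calls (adjusted p up to 0.0699 and 0.108), and leaving out siNT replicate 1 ended that of PCSK1 as well (0.0591). The acinar and ductal markers had a row for 3 of 16 genes, with summed levels of 1763 to 1844 in siNT and 1903 to 2021 in siMNX1. The mesenchymal, endothelial and immune markers had a row for 3 of 16, with sums of 1372 to 1603 and 1167 to 1417, nearly all of it CD68. In the acinar and ductal list KRT19 and CPA1 had log2 fold changes of 0.19 and -0.01, and in the other list CD68, COL1A1 and PDGFRB had -0.20, 0.32 and 0.33, none past the threshold. COL1A1 and PDGFRB were low, with means of 30.05 and 13.37 normalized counts, and COL1A1 ran from -0.06 to 0.80 with 1 library left out. Mitochondrial genes held 5.39% to 6.81% of the siNT totals and 5.43% to 6.49% of the siMNX1 totals. The part of other cell types in the results below was not tested. In bulk RNA, fewer cells in a phase and less RNA per cell cannot be told apart.

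Of the 46 members, 5 fell with MNX1 siRNA and 0 rose (limma, adjusted p under 0.05). They were the replication genes CDT1, FEN1 and PCNA, the G1 cyclin CCND3 and the inhibitor CDKN1C. Across all genes tested 1.33% were lower and 1.99% higher, 3.32% in either direction. At an unadjusted p under 0.05, 16 members were lower and 2 higher, where 8.56% and 9.81% of all genes were. Fold changes below 0 on the log2 scale were found for 35 of the 46 and for 50.1% of all genes. The median stood at -0.09 for the members and -0.0004 for all genes. The siMNX1 libraries all lay below the siNT libraries for 21 members and all above them for 2, where 12.1% and 12.0% of all genes did so. The calls were close to the threshold. With 1 library left out, the number that fell was 0 (siNT replicate 1), 1 (siNT replicate 2), 1 (siNT replicate 3), 1 (siMNX1 replicate 1), 2 (siMNX1 replicate 2) or 3 (siMNX1 replicate 3). Those fits have fewer samples. In GENCODE 29, 18 of the 46 members share exonic bases with another gene and 10 have a pseudogene named after them, and their levels are uncertain to that extent.

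**Figure D1:**
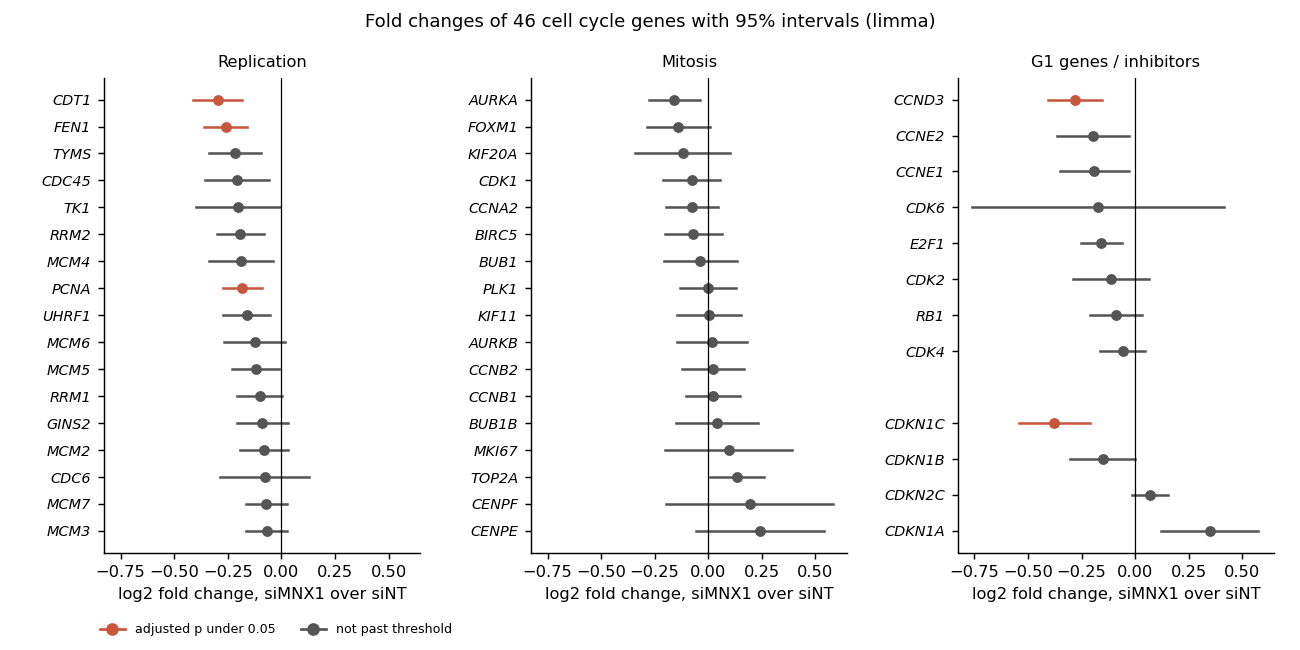
Log2 fold change (siMNX1 over siNT, points) and 95% interval (lines) of each of the 46 measured members, in 3 panels for replication, for mitosis, and for G1 genes with the inhibitors below them. The 17 replication genes all lie below 0, from -0.30 to -0.07, while the mitosis genes lie on both sides, from -0.16 to 0.24, and the 5 genes past the threshold are red.

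The replication genes lay lower together, by small amounts. All 17 log2 fold changes were below 0, from -0.30 for CDT1 to -0.07 for MCM3 (median -0.16). Of these, 3 passed the threshold, 10 had an unadjusted p under 0.05, and for 12 the groups did not overlap. Among all genes 1.33% were called lower, 8.56% were lower unadjusted, and 12.1% lay apart and lower. By library, the median difference of these genes from their siNT means was 0.02, 0.002 and -0.02 in the siNT libraries and -0.16, -0.13 and -0.14 in the siMNX1 libraries, in the order of their replicate numbers. The same median over all genes lay between -0.0007 and 0.003 in every library. With each library left out in turn, the median log2 fold change of the replication genes ran from -0.17 to -0.15.

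**Figure D2:**
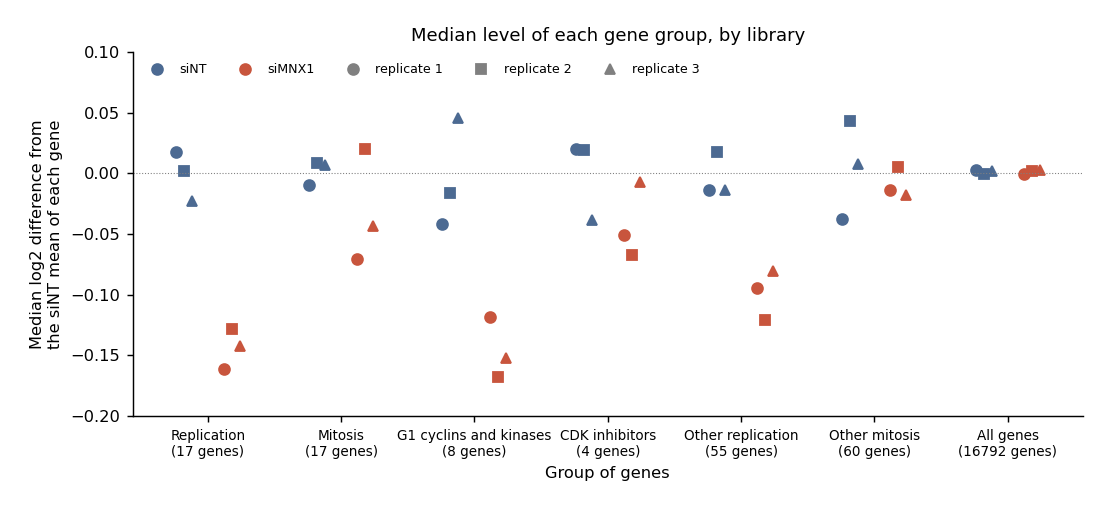
For each gene group, the median over its genes of the log2 difference from the gene's siNT mean, by library (blue siNT, red siMNX1, symbols for replicates). The siMNX1 libraries lie from -0.16 to -0.13 for the replication members and from -0.17 to -0.12 for the G1 members, while for mitosis members siMNX1 replicate 2 lies at 0.02, above the other libraries.

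Origins of replication are licensed by CDT1 and CDC6, which load the MCM helicase onto DNA. CDT1 lies on chromosome 16 from 88803213 to 88809258 (GRCh38, plus strand). Its normalized counts were 2180, 2132 and 2253 in siNT and 1796, 1741 and 1805 in siMNX1. The groups did not overlap, and CDT1 fell by 18.6%, or 0.30 on the log2 scale (95% interval -0.41 to -0.18, limma, adjusted p = 0.0149). The CDT1 call ended without siNT replicate 1 (adjusted p = 0.053) or siNT replicate 3 (0.085). CDC6 had 1307, 1341 and 1488 in siNT and 1487, 1159 and 1286 in siMNX1, so the groups overlapped (log2 fold change -0.08, interval -0.29 to 0.13).

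MCM2 to MCM7 form the ring of 6 subunits that unwinds DNA. Limma called 0 of them, and 2 (MCM4 and MCM5) had an unadjusted p under 0.05. MCM4 had 6266, 6657 and 5580 in siNT and 5215, 5658 and 5329 in siMNX1, with an overlap, and MCM5 had 3390, 3261 and 3211 against 2940, 3118 and 3014, with none. Their log2 fold changes were -0.19 and -0.12, with adjusted p of 0.166 and 0.219 by limma. MCM6, MCM2, MCM7 and MCM3 had -0.13, -0.08, -0.07 and -0.07. Without siNT replicate 1 the values of MCM6 and MCM2 were -0.05 and -0.03, and without siNT replicate 3 that of MCM7 was -0.05. The summed level of the 6 subunits ran from 35939 to 37400 in siNT and from 33666 to 34553 in siMNX1, with no overlap. Per kilobase of exon, the siNT levels were 2606 ± 92.6 for MCM7, 1488 ± 86.9 for MCM2, 1258 ± 28.1 for MCM3, 954 ± 84.4 for MCM6, 885 ± 78.2 for MCM4 and 448 ± 12.5 for MCM5 (normalized counts per kb, SD, n = 3). MCM6 and MCM4 did not differ beyond their spread, and the other neighbours in that order did. The lengths are unions of all annotated exons, which lowers the level of a gene with many annotated transcripts. MCM2 and MCM7 share exonic bases with genes on the opposite strand.

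CDC45 and the GINS complex turn the loaded ring into a working helicase. CDC45 had 710, 706 and 688 in siNT and 613, 626 and 586 in siMNX1, without overlap, and was not called (-0.21 on the log2 scale, limma, adjusted p = 0.139). GINS2, a GINS subunit, had 2076, 2080 and 2074 against 2053, 1882 and 1929 (-0.09, limma, adjusted p = 0.412), also without overlap.

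At the fork, PCNA is the sliding clamp that holds the polymerases, and FEN1 cuts the flaps of Okazaki fragments. FEN1 had 3616, 3614 and 3526 normalized counts in siNT and 2956, 3030 and 2998 in siMNX1. The spread within each group was small beside the gap, and FEN1 fell by 16.5%, or 0.26 on the log2 scale (interval -0.36 to -0.16, limma, adjusted p = 0.0148). The FEN1 call ended without siNT replicates 1 (adjusted p = 0.0565), 2 (0.0696) or 3 (0.0602) or siMNX1 replicate 1 (0.0579). FEN1 (chromosome 11, 61792637 to 61797244, plus strand, GRCh38) shares exonic bases with FADS2 on the same strand and TMEM258 on the opposite one. How shared reads were assigned is not stated, so the FEN1 level is uncertain. FADS2 and TMEM258, looked up for that overlap, had log2 fold changes of -0.07 and -0.18, and neither passed (limma, adjusted p = 0.404 and 0.18). PCNA, at 8206 ± 271 per kb of exon in siNT (n = 3), was the most abundant member on that scale. It lies on chromosome 20 from 5114953 to 5126626 on the minus strand. It had 12224, 12372 and 11619 in siNT and 10763, 10533 and 10622 in siMNX1, without overlap. PCNA fell by 0.18 on the log2 scale, a call that ended whichever library was left out (limma, adjusted p = 0.0462 with all, 0.0821 to 0.166 with 1 left out). PCNA has 3 named pseudogenes, and the treatment of reads shared with such copies is likewise not stated.

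Of the enzymes that make deoxynucleotides, limma called 0, and all 4 had lower means with MNX1 siRNA. RRM1 and RRM2 are the subunits of ribonucleotide reductase, TYMS makes thymidylate and TK1 salvages thymidine. TYMS had 3003, 3022 and 3103 in siNT and 2559, 2517 and 2783 in siMNX1 (log2 fold change -0.22, limma, adjusted p = 0.0617). RRM2 had 10476, 10973 and 10994 against 10055, 9120 and 9239 (-0.19, limma, adjusted p = 0.0681). The groups were apart for TYMS, RRM2 and RRM1 (-0.10), and overlapped for TK1 (-0.20). UHRF1, which helps to pass DNA methylation to the new strand, had 4520, 4253 and 4564 against 3871, 4104 and 3947 (-0.16, limma, adjusted p = 0.113). TYMS shares exonic bases with ENOSF1 and TYMSOS on the opposite strand, and RRM2 with an overlapping gene on its own strand.

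**Figure D3:**
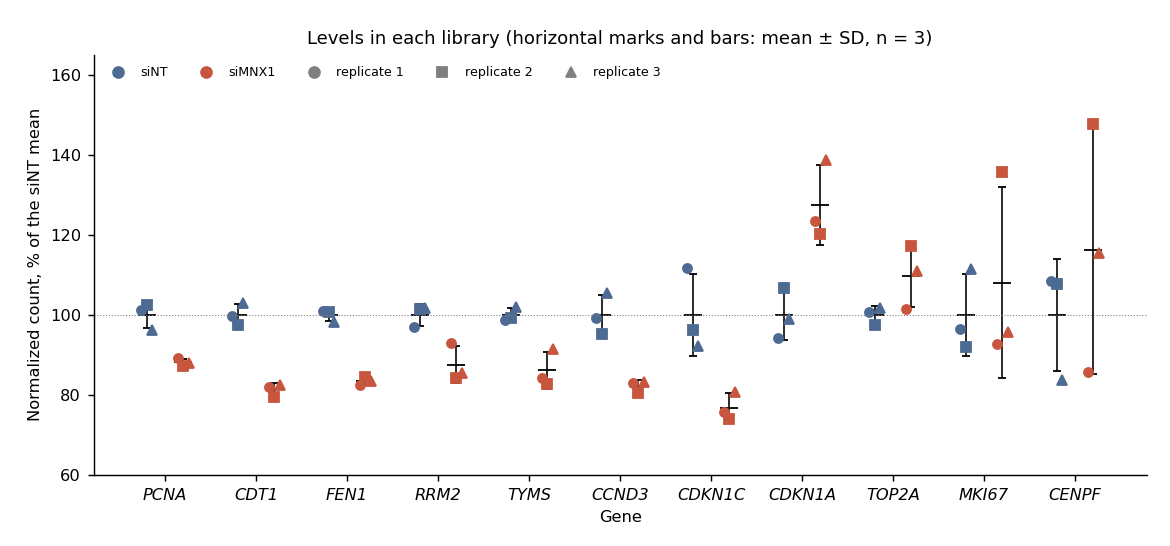
Normalized counts in each library as a percentage of the siNT mean of that gene (blue siNT, red siMNX1, symbols for replicates), with mean ± SD as horizontal marks and bars, n = 3. The siMNX1 libraries lie together below siNT for PCNA, CDT1, FEN1 and CCND3, and siMNX1 replicate 2 lies far above the other siMNX1 libraries for MKI67 (3486 against 2387 and 2464) and CENPF (2752 against 1595 and 2151).

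The mitosis genes lay on both sides of 0. Of the 17, 8 were below and 9 above on the log2 scale (median 0.003), and limma called 0, with 1 lower (AURKA) and 1 higher (TOP2A) at an unadjusted p under 0.05. The groups overlapped for 15 of them, and for 2 the siMNX1 libraries lay apart and lower, where 12.1% of all genes did so. By library, the median difference of the mitosis genes from their siNT means was -0.01, 0.009 and 0.007 in siNT, in replicate order. In siMNX1 it was -0.07, 0.02 and -0.04, so only siMNX1 replicate 2 lay above 0. Without that library the median log2 fold change was -0.05, and it ran from -0.04 to 0.01 with another library left out. The kinase CDK1, which with cyclin B starts mitosis, had 2339, 2661 and 2480 in siNT and 2429, 2297 and 2351 in siMNX1 (log2 fold change -0.08). Its cyclins CCNB1 and CCNB2 had 0.02 (interval -0.10 to 0.15) and 0.02 (-0.12 to 0.17), and CCNA2, which acts in S phase and at entry to mitosis, had -0.08 (-0.20 to 0.05). For CCNB1 that interval leaves out a fall as large as that of CDT1 or FEN1. A test of the difference between the replication and mitosis groups was not made, since both were chosen with results of these data known.

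Among the kinases and regulators of spindle and chromosomes, limma called 0. AURKA, the kinase of centrosomes and spindle poles, had 1862, 1974 and 1973 in siNT and 1680, 1764 and 1758 in siMNX1, without overlap (log2 fold change -0.16, limma, adjusted p = 0.152). AURKB, the kinase of the chromosomal passenger complex, had 0.02, and its partner BIRC5 had -0.07. PLK1, a kinase of many mitotic steps, had 1472, 1579 and 1602 against 1526, 1521 and 1602, a log2 fold change of -0.0006 (interval -0.13 to 0.13). The spindle checkpoint proteins BUB1 and BUB1B had -0.04 and 0.04. The kinesins KIF11 and KIF20A had 0.003 and -0.12. FOXM1, an activator of mitotic genes, had 2622, 2691 and 2736 against 2271, 2685 and 2370 (-0.14, limma, adjusted p = 0.3), and only siMNX1 replicate 2 reached the siNT range.

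The proliferation marker MKI67, the topoisomerase TOP2A and the kinetochore proteins CENPE and CENPF had higher means with MNX1 siRNA, and none was called. The spread was wide for MKI67, CENPE and CENPF (standard errors of the log2 fold change 0.13, 0.13 and 0.17) and smaller for TOP2A (0.06). TOP2A had 6115, 5921 and 6167 in siNT and 6156, 7109 and 6727 in siMNX1 (log2 fold change 0.13, interval 0.01 to 0.26, limma, adjusted p = 0.246). MKI67 had 2480, 2367 and 2866 against 2387, 3486 and 2464, so that siMNX1 replicate 2 alone lay above the siNT range (log2 fold change 0.09). Without that library the MKI67 value was -0.08, and that of CENPF moved from 0.19 to 0.002. CENPE had 690, 578 and 723 against 629, 872 and 869 (0.24, interval -0.06 to 0.54), and its value was 0.15 without siNT replicate 2 and 0.40 without siMNX1 replicate 1. Without the latter library MKI67 and CENPF had 0.19 and 0.40. For all of these genes the groups overlapped.

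Among mitosis members the height of siMNX1 replicate 2 over siMNX1 replicates 1 and 3 ran with transcript length. The Spearman rank correlation with the length of the union of exons was 0.79 over the 17 mitosis members, 0.08 over the 17 replication members, 0.25 over 60 other mitosis genes and 0.15 over 16593 genes with a length, as a description of 1 set of libraries. The genes are not independent and share these libraries. CENPF (11.7 kb of exon), MKI67 (12.8 kb) and CENPE (9.44 kb) were higher in that library by 0.57, 0.52 and 0.24 on the log2 scale. CDK6, a G1 kinase with 12.3 kb of exon, was higher by 0.98. The part of length or of RNA quality in these values was not tested.

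**Figure D4:**
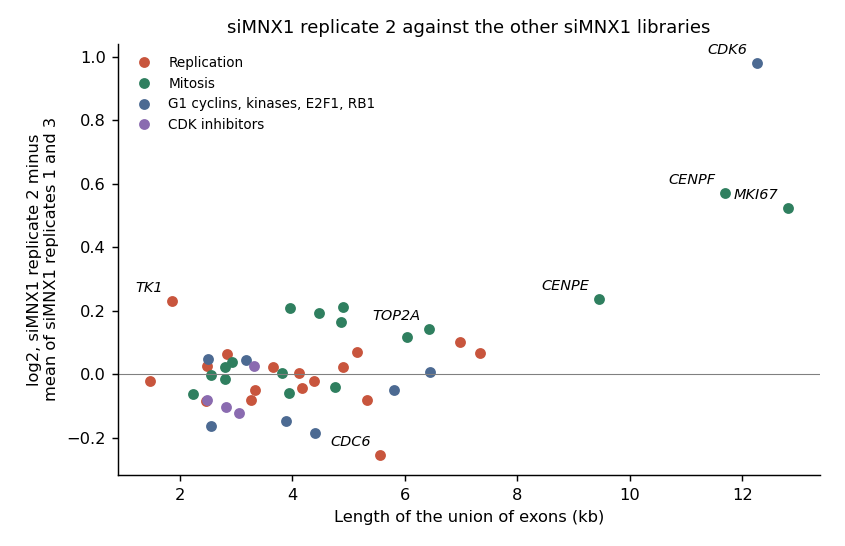
Log2 level in siMNX1 replicate 2 minus the mean of siMNX1 replicates 1 and 3, against the length of the union of exons in kb, for the 46 members (colours for the gene groups). The members with the 3 longest exon unions, CDK6, CENPF and MKI67, lie highest, at 0.98, 0.57 and 0.52.

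The 8 G1 members all had lower means with MNX1 siRNA (median log2 fold change -0.165), 4 had an unadjusted p under 0.05, and 1 fell. Among all genes 8.56% were lower unadjusted and 1.33% fell. CCND3, a D-type cyclin that activates CDK4 and CDK6 (chromosome 6, 41934933 to 42050357), had 2060, 1976 and 2185 in siNT and 1723, 1667 and 1726 in siMNX1. It fell by 17.8%, or 0.28 on the log2 scale (interval -0.41 to -0.16, limma, adjusted p = 0.0279), a call that ended whichever library was left out (adjusted p 0.0567 to 0.128). The E-type cyclins, which activate CDK2 at entry to S phase, had 826, 877 and 870 against 783, 697 and 777 for CCNE1 and 987, 1069 and 1082 against 971, 837 and 934 for CCNE2. The groups did not overlap for either, and log2 fold changes of -0.19 and -0.20 did not pass (limma, adjusted p = 0.191 and 0.198). CCNE2 shares exonic bases with INTS8 on the opposite strand.

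Of the 3 G1 kinases, limma called 0. CDK4 had 3429, 3489 and 3586 in siNT and 3393, 3437 and 3263 in siMNX1 (log2 fold change -0.06), and CDK2 had -0.11. CDK6 had 230, 251 and 314 against 221, 367 and 156, the widest interval of all members (-0.76 to 0.41). Per kilobase of exon the siNT levels were 1105 ± 25.0 for CDK4, 582 ± 58.2 for CDK2 and 21.6 ± 3.6 for CDK6 (n = 3), each beyond the spread of the next. E2F1, an activator of S phase genes, had 5540, 5483 and 5754 in siNT and 4923, 5128 and 4994 in siMNX1, apart by more than the spread and not past the threshold (-0.16, limma, adjusted p = 0.0893). RB1, which restrains E2F factors, had -0.09 (limma, adjusted p = 0.427).

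The 4 inhibitors differed in sign, 1 fell, and for each the groups did not overlap (2 lower and 2 higher). Among all genes 12.1% lay apart and lower, 12.0% lay apart and higher, and 1.33% fell. CDKN1C (p57), an imprinted inhibitor that restrains beta cell division (chromosome 11, 2883213 to 2885773), had 3477, 2993 and 2872 in siNT and 2355, 2304 and 2517 in siMNX1. It fell by 23.2%, or 0.38 on the log2 scale, the largest fall among the members (interval -0.54 to -0.21, limma, adjusted p = 0.0268). The CDKN1C call ended without siNT replicates 1 (adjusted p = 0.059) or 2 (0.0716) or siMNX1 replicates 1 (0.0915) or 2 (0.0578). CDKN1A (p21), a target of p53, had 227, 257 and 239 against 298, 290 and 335. That was the largest upward value among the members, 27.4% or 0.35 on the log2 scale, and it did not pass (interval 0.12 to 0.58, limma, adjusted p = 0.102). CDKN1B (p27) had 816, 825 and 779 against 724, 692 and 763 (-0.15, limma, adjusted p = 0.272). CDKN2C (p18), an inhibitor of CDK4 and CDK6, had 14703, 14523 and 14196 against 15031, 15363 and 15145 (0.07, limma, adjusted p = 0.374). Per kilobase of exon, siNT levels ran in the order CDKN2C (4362 ± 77.5), CDKN1C (1257 ± 129), CDKN1B (287 ± 8.61) and CDKN1A (79.1 ± 4.94), each apart from the next by more than their SD (n = 3).

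Other genes of the same pathways were taken from lists drawn up for these processes with earlier results of these data known. The lists are therefore a description and no independent check. Of 55 other replication genes, 3 fell and 1 rose, and 44 lay below 0 on the log2 scale (median -0.11). At an unadjusted p under 0.05, 16 of them were lower and 2 higher. Of all genes 1.33% fell and 1.99% rose, 8.56% were lower and 9.81% higher unadjusted, and 50.1% lay below 0. ASF1B, a histone chaperone of S phase, fell by 0.27 on the log2 scale, from a mean of 1992 ± 26.0 in siNT to 1652 ± 20.2 in siMNX1 (SD, n = 3, limma, adjusted p = 0.0198). RECQL4, a helicase of replication, fell by 0.40 and POLD1, the catalytic subunit of polymerase delta (named after its values were seen), by 0.26 (limma, adjusted p = 0.0205 and 0.0417). POLD4, the small subunit of polymerase delta, rose by 0.64 from a low level of 77.8 ± 1.93 (limma, adjusted p = 0.0364). Left-out libraries kept the ASF1B call only without siMNX1 replicate 2, the RECQL4 call without siMNX1 replicates 2 or 3, the POLD1 call without siMNX1 replicate 3, and the POLD4 call in 0 of 6 cases. The adjusted p then reached 0.0889 for ASF1B, 0.108 for RECQL4, 0.16 for POLD1 and 0.13 for POLD4. Of 60 other mitosis genes, limma called 0, with 4 lower and 1 higher at an unadjusted p under 0.05, and the median was -0.008. The count rested on values near the threshold. CDCA5, which protects sister chromatid cohesion, had -0.23 (limma, adjusted p = 0.0506) and was called lower with a pseudocount of 5, a minimum mean of 50, equal totals or a robust variance model (0.0412 to 0.0496). ASPM, a spindle pole protein, had 0.29 (limma, adjusted p = 0.0764) and was called higher without siMNX1 replicate 1 (0.0459). CDC25B, a phosphatase that activates CDK1, and the condensin subunit SMC4, the 2 with the highest mean normalized counts before any division by length, had log2 fold changes of 0.05 and 0.005.

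**Figure D5:**
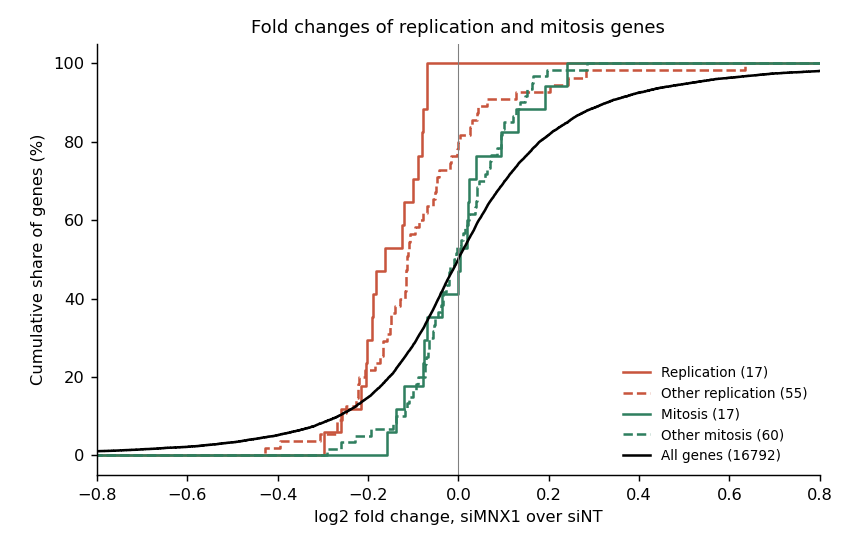
Cumulative share of genes (%) by log2 fold change (siMNX1 over siNT) for replication members, other replication genes, mitosis members, other mitosis genes and all 16792 genes. Below 0 lie 17 of 17 replication members and 44 of 55 other replication genes, against 8 of 17 mitosis members and 50.1% of all genes.

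Of 21 further genes of the RB, E2F and MuvB system, 1 fell and 0 rose (1 rose with a minimum mean of 50), with 4 lower and 3 higher unadjusted and a median of -0.04. Of all genes 1.33% fell and 1.99% rose, with 8.56% lower and 9.81% higher unadjusted. The gene that fell was TFDP1, a partner with which many E2F factors bind DNA. It had 9264 ± 197 in siNT and 8038 ± 315 in siMNX1 (fell by 0.21 on the log2 scale, limma, adjusted p = 0.0398). The TFDP1 call was kept without siMNX1 replicate 2 and ended in the other 5 cases (adjusted p up to 0.14). Of 18 genes of DNA repair in S phase, 1 rose and 0 fell, with 4 lower and 1 higher unadjusted. On the log2 scale 13 of these repair genes lay below 0 (median -0.12). ATM, the kinase that responds to breaks, rose by 0.29 on the log2 scale, with 1148 ± 32.5 in siNT and 1401 ± 87.3 in siMNX1 (limma, adjusted p = 0.0441), a call that ended whichever library was left out (up to 0.147).

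Of 20 measured p53 targets and regulators, 1 rose and 0 fell, with 5 higher and 1 lower unadjusted and a median of 0.01. Of all genes 1.99% rose and 1.33% fell, with 9.81% higher and 8.56% lower unadjusted. TP53INP1, a p53 target that promotes arrest and autophagy, rose by 0.52 on the log2 scale, with 321 ± 29.4 in siNT and 459 ± 36.4 in siMNX1 (limma, adjusted p = 0.0252). The TP53INP1 call was kept without siMNX1 replicate 3 and ended in the other 5 cases (up to 0.0944). Limma called 0 of the 4 other CDK inhibitors, with 0 higher and 1 lower unadjusted. CDKN2A and CDKN2B had 0.003 and 0.07. It also called 0 of 12 genes of the MYC network, menin and EZH2, with 0 at an unadjusted p under 0.05, and KMT2A and EZH2 had 0.05 and -0.13.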

How the data were processed

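RNA was measured in 3 siNT and 3 siMNX1 libraries, made per the labels' protocols from 5 ng of total RNA with ribosomal RNA depleted. The authors deposited normalized counts (a signal per gene with decimals, never negative). Per the submitters' processing notes the build was GRCh38 and the tools named, without roles, include RSEM 1.3.1 and STAR 2.7.6a, besides DESeq2 1.26.0 under R 3.6.3. Scaling, gene filter, annotation and strand handling were not given in the sources used here. The totals of 18406479 to 18704645 follow the normalization and are not depths, and the values are not whole reads over 1 factor per library. At the best factor 12.4% to 34.8% of low values came out whole within 0.02. That is above the 4.0% expected by chance at 1 factor, but most low values did not come out whole. Depth is therefore unknown and no counting interval was computed.

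Values were analysed as log2(value + 1) with limma 3.58.1 (R 4.3.3), a variance trend and Benjamini-Hochberg adjustment over all 16792 genes (threshold 0.05). A minimum mean of 5 removed 0 genes. Fold changes on this scale understate those of low genes. TMM scaling, as an alternative, used a trimmed mean of log ratios on the deposited values. The procedure was tested on simulated data whose planted fold changes were all larger than those of the called members. That test does not cover changes of their size. Groups and replicate numbers came from the titles. Positions and exon lengths are from GENCODE 29 and promoters from RefSeq (GRCh38.p14), with 54 windows of 300 bases for 38 of the 46 measured members. Every measured member is named. Each other list gives at most 3 called genes by smallest adjusted p, or its 2 with the highest mean normalized count if limma called 0. Outside that rule, PCSK1, POLD1, PDGFRB, CDCA5, ASPM, FADS2 and TMEM258 were named after their values were seen. The values of 1 marker are not reported here. The members and lists were chosen with earlier results of these data known. Python 3.11.15 and matplotlib 3.10.9 drew the plots.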

Additional observations from a re-analysis of the deposited data

How the results depend on the processing

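The median log2 fold change of the replication members stayed below 0, and the count of members higher stayed at 0, under all settings tried. The count of 5 members lower stayed at 5 with pseudocounts of 0.5 or 5, no filter, a minimum mean of 50, TMM scaling, equal totals and a robust variance model, and ran from 0 to 3 with 1 library left out. All genes higher ran from 133 to 257 and all genes lower from 65 to 179 with 1 library left out, against 335 and 223. The replicate numbers mark no stated pairing, and deviations of same-numbered libraries correlated at -0.01, -0.009 and -0.04. With a replicate block, 162 genes were higher, 75 lower and 0 members lower (by limma, with 15 members lower and 1 higher at an unadjusted p under 0.05). The unadjusted shares of all genes in the fit with a replicate block are not given, so those member counts lack a background. With 1 library left out, the median of mitosis members ran from -0.0522 to 0.0129 and that of G1 members from -0.208 to -0.12.

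A left-out library moved the log2 fold change of 23 members by over 1.5 times, 15 of them mitosis members and 4 replication members. Values near 0 pass such a ratio easily, as did PLK1 (-0.0006) and KIF11 (0.003) in all left-out fits. The counts therefore do not compare the stability of the groups, and no share over all genes is given. The 5 called members were not among the 23, but calling favours fold changes that are large beside their spread. The sign changed for values that no fit called, most of them near 0 with all libraries but not those of COL1A1 (0.32) and CDK6 (-0.17), and the cause was not tested. PLK1 had 0.00117 with TMM scaling, and KIF11 and CDKN2A had -0.00108 and -0.00118 with equal totals. Log2 fold changes with 1 library left out ran as follows: AURKB -0.0381 to 0.0706, BUB1 -0.0762 to 0.0308, BUB1B -0.0244 to 0.136, CCNB2 -0.0108 to 0.0618, CDC6 -0.173 to 0.00675, CDK6 -0.499 to 0.116, CDKN2A -0.0407 to 0.0728, COL1A1 -0.0604 to 0.798, CPA1 -0.0729 to 0.0213, KIF11 -0.0522 to 0.0388, KMT2A -0.0773 to 0.166, MKI67 -0.0797 to 0.194, PLK1 -0.038 to 0.0232, SMC4 -0.0287 to 0.0322. Depth is unknown, so what it limits could not be assessed.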
